A study of Mus musculus with 8 samples.

Results

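A set of 10 forkhead genes that act in restricted lineages of the embryo were followed here: Foxa2, Foxb1, Foxc2, Foxd2, Foxd3, Foxe1, Foxf1, Foxl1, Foxl2 and Foxs1. They were chosen by name, with earlier results of these data known. Each was read from the transcript interval of the deposited table that best matched its RefSeq span. The bases in common had to make up 0.5 or more of all bases in either. All 10 were found, among 20220 genes named in the same way from 50398 intervals. Foxe1 lay just inside the limit, at 0.524, because its interval covers 1116 bp of a longer gene model. The other members had an interval that matched the gene from end to end, and Foxa2 had 2 shorter ones nested in it.

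The mark measured was H3K27me3, by ChIP-seq, in E14tg2a mouse embryonic stem cells of the 129SV background. The cells carried a stably expressed cRAF-ErT2 cassette, a RAF kinase that 4-hydroxytamoxifen (4OHT) switches on to drive ERK signalling, and were sampled as clones A and B of that line. All groups had been grown with LIF, serum and the GSK3 inhibitor Chir99021 at 2 µM. For the last 24 h the FGF receptor inhibitor PD173074 (250 nM) took its place. Cells with 2 h of 250 nM 4OHT (2 h) were set against untreated cells (0 h), with 1 library per clone and time. The promoter of the cassette was not given in the sources used here, and no control without the cassette was used here. Column totals ran from 70378127 to 92518605 counts over intervals that partly overlap, and 4 input libraries were not analysed here. For comparison, 8 measured stem cell genes stood at 0.230 (Tfcp2l1) to 0.695 (Nanog) times the median gene. By the limit used below, 0 of 8 carried the mark. Only 5.76% of all named genes did, so these values do not check which cells were sampled.

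Forkhead proteins are transcription factors that share a winged-helix DNA-binding domain, and each of these members is used by few tissues. Polycomb repressive complex 2 places H3K27me3 over the CpG-rich starts of developmental regulators, which in stem cells are held silent or nearly so until a lineage calls on them. ERK signalling moves stem cells towards differentiation.

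By the mean of the 4 libraries, all 10 genes carried H3K27me3, 7 of them at more than 10 times the density of the median gene. Density was taken as counts per kb of interval, scaled to 1000000 counts in the column. The median gene stood at 0.357, and a gene was called marked at 4 times that value or more. By that limit 10 of 10 members were marked, against 5.76% of all named genes. The members were chosen with earlier results of these data known, so this count is a description and not a test. The densest was Foxf1 at 14.1 times the median gene, and the sparsest were Foxd3 and Foxs1 at 4.15 and 4.13 times. At 0 h, Foxs1 stood under the limit in clones A and B, at 3.56 and 3.55 times the median gene of the library. Foxd3 did so in clone B, at 3.51 times. Ranked by density among the 20220 named genes, Foxf1 stood at position 50, Foxl1 at 92 and Foxl2, the seventh member, at 230. Foxe1 stood at position 379, Foxd3 at 1104 and Foxs1 at 1113. In bulk chromatin, fewer cells with the mark and less mark per cell cannot be told apart.

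**Figure D1:**
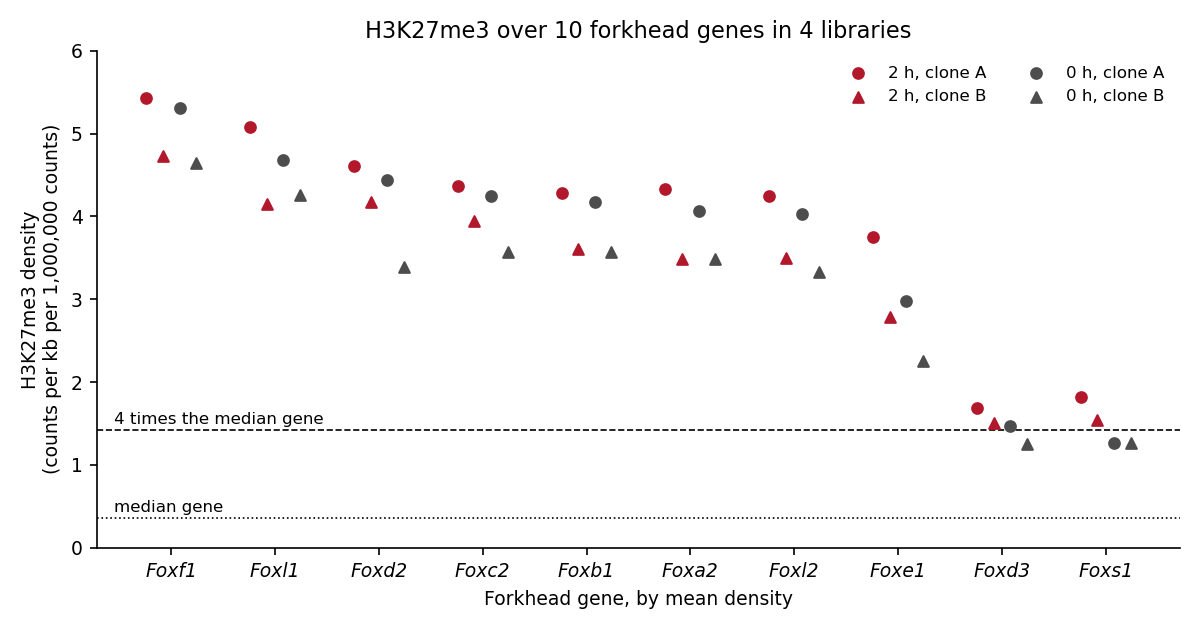
H3K27me3 density (counts per kb per 1000000 counts) of the 10 forkhead genes in each library, with red for 2 h, grey for 0 h, circles for clone A and triangles for clone B. The dotted line is the median gene at 0.357 and the dashed line is 4 times that value; 7 genes lie above 3.3 in all 4 libraries, Foxe1 lies lower, and Foxd3 and Foxs1 lie near the dashed line.

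Foxf1, Foxc2 and Foxl1, which act in mesoderm or mesenchyme, are neighbours on mouse chromosome 8, within 46.3 kb (mm10). Foxf1, which patterns the mesoderm around gut and lung, lies at chr8:121084386-121088154. Its density was 5.43 and 4.73 at 2 h (clones A and B), against 5.31 and 4.65 at 0 h. Foxc2, a regulator of lymphatic vessels and their valves, lies at chr8:121116171-121118895 and measured 4.36 and 3.94 at 2 h, against 4.25 and 3.57 at 0 h. Foxl1, a factor of the gut mesenchyme, lies at chr8:121127685-121130644 and measured 5.08 and 4.15 at 2 h, against 4.68 and 4.26 at 0 h. In each of the 3 genes both clone A libraries were above both clone B libraries, and the 2 times overlapped.

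At this locus Foxf1 and Foxc2 were separated by an unmarked gene, and no named gene lay between Foxc2 and Foxl1. Mthfsd, a coding gene that lies between Foxf1 and Foxc2, stood at 0.342 times the median gene, with densities of 0.108 and 0.162 at 2 h and 0.105 and 0.113 at 0 h. Foxf1 was 29.1 to 50.7 times as dense as Mthfsd in the 4 libraries. On the other side, Fendrr, a long noncoding RNA of lateral mesoderm that starts 1.28 kb from Foxf1 on the opposite strand, was marked at 6.24 times. Foxf1 was 2.26 ± 0.118 times as dense as Fendrr (SD over 4 libraries), whose interval of 28229 bp is longer. Of the other 8 named genes within 200 kb of the Foxf1 start, all noncoding, none was marked, and they stood between 1.35 and 2.50 times the median gene.

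**Figure D2:**
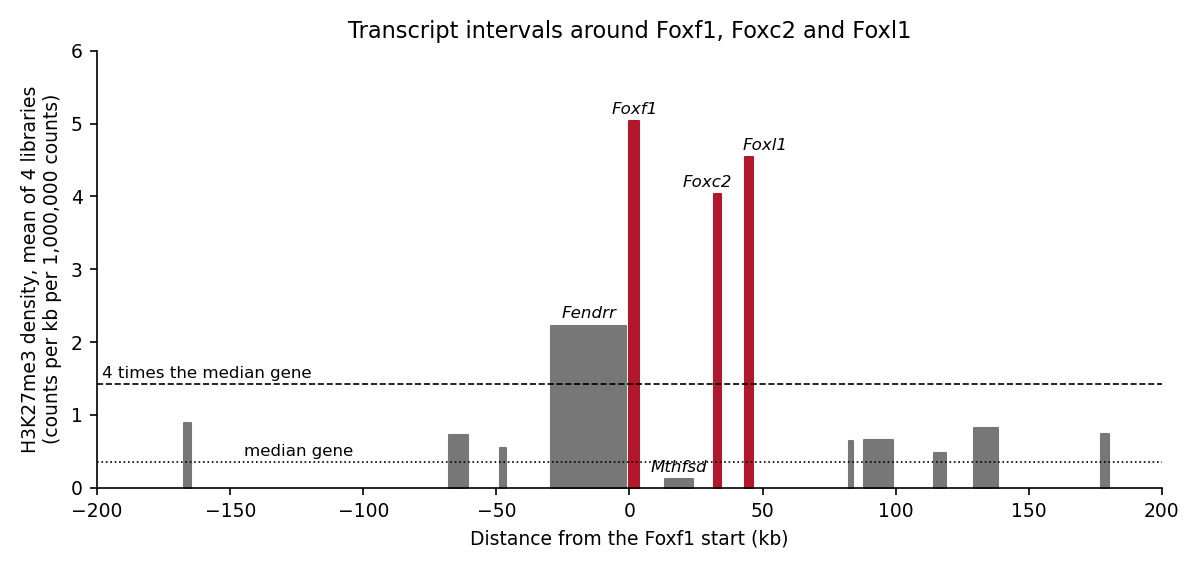
Mean H3K27me3 density of 4 libraries (counts per kb per 1000000 counts) for every named transcript interval within 200 kb of the Foxf1 start, drawn to scale by distance from that start. Foxf1, Foxc2 and Foxl1 (red) reach 5.03, 4.03 and 4.54, and Fendrr reaches 2.23. Mthfsd, between Foxf1 and Foxc2, lies at 0.122, below the median gene (dotted line).

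Foxd2, expressed in mesenchyme that includes that of the kidney, and Foxd3, a factor of the neural crest that mouse embryonic stem cells also express, are close relatives within the family and differed in density. Foxd2 (chr4:114906280-114908898) measured 4.61 and 4.17 at 2 h, against 4.44 and 3.39 at 0 h. Foxd3 (chr4:99656299-99658671) measured 1.69 and 1.501 at 2 h, against 1.47 and 1.25 at 0 h. Foxd2 was 2.70 to 3.02 times as dense as Foxd3 in every library, a gap well outside the spread between libraries. The 2 intervals are of like length, 2619 and 2373 bp.

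The endoderm members differed less. Foxa2, a pioneer factor of endoderm, notochord and floor plate, lies at chr2:148042877-148046969 and measured 4.33 and 3.49 at 2 h, against 4.07 and 3.48 at 0 h. Foxe1, needed for the thyroid and palate, was read at chr4:46344194-46345309 and measured 3.75 and 2.78 at 2 h, against 2.98 and 2.26 at 0 h. In both genes the clones stood further apart than the times, with clone A above clone B at each time.

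Within Foxa2 the mark was denser over the body of the gene than over its upstream part. The 2588 bp shared by all 3 nested intervals measured 5.03 and 4.02 at 2 h, against 4.54 and 3.97 at 0 h. The outermost 1021 bp, which are upstream in the direction of transcription, measured 3.39 and 2.80 at 2 h, against 3.28 and 2.70 at 0 h, and the 484 bp between them averaged 2.60 over the 4 libraries. Every library showed the shared stretch above both added ones. The added stretches were taken as differences of nested counts, so reads that cross a border may be missing from them.

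Foxb1, a factor of the developing diencephalon, lies at chr9:69757710-69760940 and measured 4.29 and 3.60 at 2 h, against 4.18 and 3.57 at 0 h. Foxl2, which maintains the granulosa cells of the ovary, lies at chr9:98955607-98958126 and measured 4.24 and 3.49 at 2 h, against 4.03 and 3.33 at 0 h. Both showed the same picture of 2 high clone A and 2 lower clone B libraries, with no gap between the times.

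Foxs1, found in pericytes and in sensory neurons of crest origin, was the sparsest member. It lies at chr2:152931898-152933208 and measured 1.82 and 1.54 at 2 h, against 1.27 and 1.27 at 0 h. It also had the fewest counts, 221 and 172 at 2 h and 117 and 135 at 0 h, and counting error alone gives its lowest count a 95% interval (exact Poisson) of 96.8 to 140 counts. Both 2 h values lay above both 0 h values, and the 0 h values lay under the limit for a marked gene. For Foxd3 the 0 h clone B library also lay under that limit, at 3.51 times the median gene of its library.

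The order of the members was steady only across its larger steps. Foxf1 was above Foxl1 in 4 of 4 libraries, at a ratio of 1.11, and Foxl2 above Foxe1 at 1.30 and Foxe1 above Foxd3 at 1.97, each in 4 of 4. These 3 steps exceeded 2 SD of the log2 ratio over libraries. From Foxl1 through Foxd2, Foxc2, Foxb1 and Foxa2 to Foxl2, each neighbour in the order differed by a ratio of 1.02 to 1.10, held in 3 of 4 libraries, and did not differ beyond that spread. The same was true of Foxd3 and Foxs1, where Foxd3 was above in 1 of 4 libraries.

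RefSeq promoter sequences (GRCm38.p6, the assembly of mm10) were in the table for 4 of the 10 members: Foxa2, Foxd2, Foxd3 and Foxl2. Below are the 250 bases before the start for Foxd2 and Foxd3, the relatives that differed in density, and for 2 of the 3 Foxa2 starts, 5′ to 3′ on the gene's strand, with each CG dinucleotide in capitals. They lie at chr4:114908899-114909148 (minus strand, Foxd2), chr4:99656049-99656298 (plus strand, Foxd3), chr2:148046970-148047219 (minus strand, the outermost Foxa2 start) and chr2:148045949-148046198 (minus strand, the middle Foxa2 start).
Foxd2: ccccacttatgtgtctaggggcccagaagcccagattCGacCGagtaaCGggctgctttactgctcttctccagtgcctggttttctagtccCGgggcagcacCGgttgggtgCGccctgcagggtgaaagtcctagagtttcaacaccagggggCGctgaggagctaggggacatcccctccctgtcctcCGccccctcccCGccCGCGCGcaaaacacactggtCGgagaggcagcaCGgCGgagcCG
Foxd3: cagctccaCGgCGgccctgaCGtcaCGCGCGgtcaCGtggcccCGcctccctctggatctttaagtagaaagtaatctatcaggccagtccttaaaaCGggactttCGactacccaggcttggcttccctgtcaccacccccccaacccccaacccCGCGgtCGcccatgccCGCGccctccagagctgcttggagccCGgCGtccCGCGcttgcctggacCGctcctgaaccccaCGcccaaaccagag
Foxa2 outermost: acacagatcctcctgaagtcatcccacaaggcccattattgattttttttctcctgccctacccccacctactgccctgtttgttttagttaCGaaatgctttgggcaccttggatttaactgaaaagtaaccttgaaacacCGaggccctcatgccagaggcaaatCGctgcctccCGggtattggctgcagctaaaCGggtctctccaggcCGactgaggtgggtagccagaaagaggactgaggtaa
Foxa2 middle: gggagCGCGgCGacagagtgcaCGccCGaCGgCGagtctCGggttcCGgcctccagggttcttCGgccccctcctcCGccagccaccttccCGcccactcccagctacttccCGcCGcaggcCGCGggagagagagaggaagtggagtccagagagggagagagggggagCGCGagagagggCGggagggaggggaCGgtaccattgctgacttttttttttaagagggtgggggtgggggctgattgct

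The motif counted was CG, which reads the same on both strands and cannot overlap itself. Foxd3, the sparser of the pair, held 21 CG and Foxd2 held 16. Foxl2 held 22, and the 3 Foxa2 starts held 6, 20 and 13 from the outermost inwards. Of all 32851 promoters in the table, the median held 6 CG, and 16.3% held at least the 21 of Foxd3. Unmarked genes also had such promoters: Klf4 and Sox2, at 0.334 and 0.305 times the median gene, held 32 and 27 CG. Of the 4957 named genes with a promoter of 15 CG or more, 6.82% were marked. The counted H3K27me3 intervals begin at the start and do not hold these bases, apart from those of the middle and inner Foxa2 starts, which lie within the Foxa2 interval.

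Of the 34 other forkhead genes listed, 18 could be read from the table, and 4 of them were marked (22.2%), with a median of 1.17 times the median gene. The median of the 10 members was 10.9 times. The 4 were Foxi2 at 10.0 times, Foxe3, a lens factor, at 8.19, Foxi3, of ear and skin placodes, at 6.57 and Foxo6 at 5.18. The broadly used Foxo1, Foxo3, Foxk1 and Foxj3 stood at 0.501, 0.356, 0.411 and 0.354 times, and Foxm1, a factor of dividing cells, at 0.237. Foxp3, of regulatory T cells, was the sparsest at 0.191, and Foxr2, Foxo4 and Foxp2 stood at 0.300, 0.554 and 0.922. Foxp1, Foxj2, Foxn4 and Foxr1 lay between 1.42 and 1.73 times. Foxa3, the endoderm relative of Foxa2, was unmarked at 1.86 times. Length went with this contrast: the members' intervals ran from 1116 to 4093 bp and those of the other 18 had a median of 19232.5 bp. Counts over a long transcript dilute a mark at its start, and what length contributed was not tested. Among all coding genes of 1000 to 5000 bp, 15.8% were marked and 5.58% reached 10 times the median gene, against 10 of 10 and 7 of 10 members. Members and lists were chosen with earlier results of these data known, so these contrasts are descriptions.

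**Figure D3:**
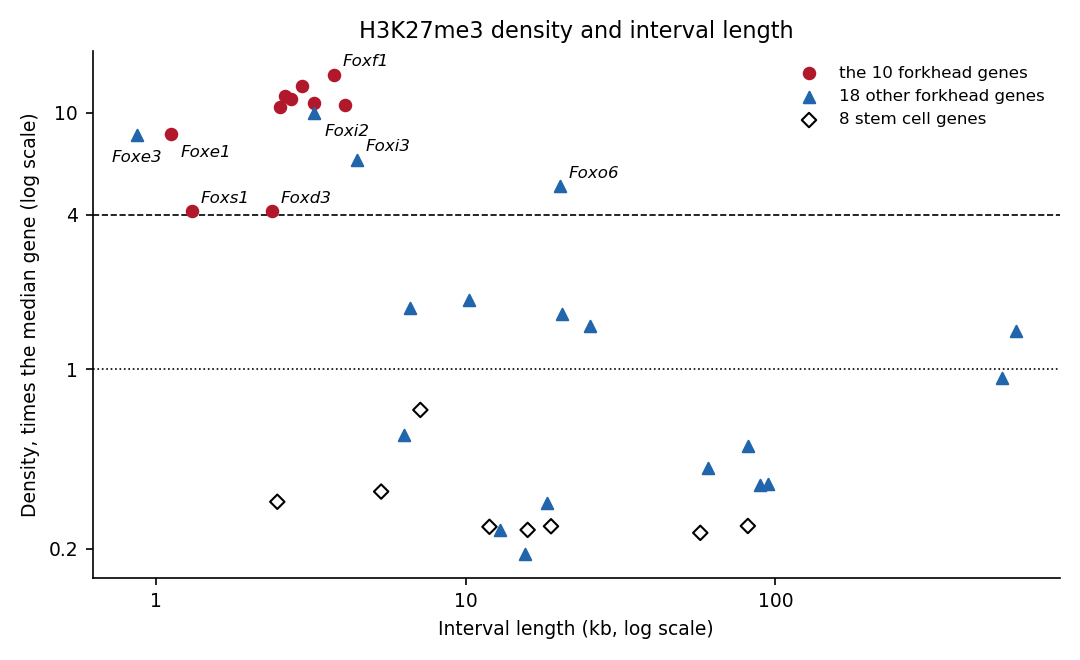
H3K27me3 density in multiples of the median gene (log scale) against interval length in kb (log scale) for the 10 forkhead genes (red circles), 18 other forkhead genes (blue triangles) and 8 stem cell genes (open diamonds). Foxi2, Foxe3 and Foxi3 lie near the 10 genes in both length and density, and most of the other forkhead genes are longer and lie below the dashed line at 4 times.

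Of 39 listed regulators that act in the same tissues, 19 could be read from the table. Of these 13 were marked, with a median over the 19 of 7.96 times the median gene. In the neural group (6 listed) 4 of 4 measured were marked, from Pax6 at 8.12 to Barhl2 at 13.2 times. In the neural crest group (8 listed) 3 of 3 were, from Tfap2b at 5.43 to Msx1 at 13.5. The endoderm group (9 listed) had 2 of 4, from Hnf4a at 1.56 to Shh at 13.2. The mesoderm and vessel group (9 listed) had 2 of 3, with Prox1 the sparsest at 2.19. The group of ovary, pituitary and thyroid genes (7 listed) had 2 of 5, from Amh at 2.09 to Nr5a1 at 7.96. Of 6 measured fibroblast genes 1 was marked, Thy1 at 6.05 times. The coding genes whose densities in the 4 libraries were closest to the members' median were Ihh, Sp9 and Gbx2, at Euclidean distances of 0.0387, 0.0394 and 0.0594 on the log2 scale. Over 4 libraries this measure reflects mainly the level, and for Ihh that was 10.7 times the median gene.

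The nearest named genes on either side of the members comprised 17 genes that are not members, of which 6 were marked. Of the 6, 3 lie head to head with a member, and these are noncoding. Foxd2os, 0.390 kb upstream of Foxd2, stood at 9.11 times the median gene, and Foxl2os, 0.296 kb upstream of Foxl2, at 10.6 times. Foxl2 and Foxl2os had a ratio of 0.994 ± 0.0688 (SD over 4 libraries), so the pair did not differ beyond that spread. The third is Fendrr. Foxs1 was far sparser than a neighbour: Dusp15, a phosphatase gene 7.79 kb upstream, stood at 9.68 times, and Foxs1 had 0.362 to 0.476 of its density in the 4 libraries. The coding neighbours Faim, Trmo and Alg6 stood at 0.497, 0.439 and 0.334 times. B230323A14Rik, which begins 0.205 kb upstream of Foxb1, stood at 3.72 times over an interval of 69054 bp. The other 2 marked neighbours are noncoding and distant, Gm12830 at 4.43 times (50.1 kb from Foxd2) and Gm31469 at 7.66 times (85.1 kb from Foxb1). Mylk2, a muscle kinase gene beside Foxs1, stood at 3.57 times and 9030622O22Rik, beside Foxa2, at 2.95 times.

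The study asked what 2 h of ERK activation through RAF does to this mark. None of the 10 genes passed the test in either direction (edgeR quasi-likelihood test, adjusted over 50037 intervals). Fitted log2 changes, 2 h minus 0 h, were positive in 10 of 10 members and ran from 0.03 (Foxb1) to 0.41 (Foxs1), beside 51.2% positive over all named genes and 63.4% over the other marked genes. Among the other marked coding genes of 1000 to 5000 bp, 75.7% were positive. The share of all intervals called was 0.0% higher and 0.0% lower, with 188 of them at an unadjusted p under 0.05. DESeq2 also called 0, with 2 intervals at that level. Neither fit had a block, so the difference between clones counted as spread, which can lower their power. With clone as a replicate block, 2078 intervals were at that level and 0 were called. Where scaling factors were taken from marked intervals alone, Foxb1, Foxf1 and Foxl1 turned to −0.016, −0.012 and −0.0007, so the sign of the small changes depends on the scaling. That choice was made after the data had been seen.

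Foxs1, Foxe1 and Foxd3, the 3 members of lowest density, had the 3 largest values. Foxs1 gave 0.41 (SE 0.17, n = 2 per time), with 0.54 in clone A and 0.26 in clone B, and its adjusted p in edgeR rounded to 1. Foxe1 gave 0.32 (SE 0.21), with 0.35 in A and 0.27 in B, and Foxd3 0.23 (SE 0.15), with 0.22 in A and 0.23 in B. All 3 were higher at 2 h in both clones. With clone as a replicate block, Foxs1 gave 0.40, Foxe1 0.31 and Foxd3 0.22. Leaving out a library moved these values, but such a fit takes in part of the clone difference. Without the 2 h library of clone A, Foxs1 gave 0.26, Foxe1 0.07 and Foxd3 0.12. Without the 0 h library of clone B, Foxe1 gave 0.13 and Foxd3 0.11. Without the 0 h library of clone A they gave 0.53 and 0.34, and without the 2 h library of clone B Foxe1 gave 0.52. For Foxs1 and Foxd3 both 2 h densities were above both 0 h densities, a pattern found in 10.7% of named genes. Spearman's rho of density with change over the 10 members was −0.71, and over 1145 other marked genes it was −0.07. Both are descriptions, since density and change come from the same libraries and the 3 genes also have the fewest counts.

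The 7 dense members changed by −0.07 to 0.27 within a clone. Foxd2 gave 0.16 (SE 0.16; 0.07 in A and 0.27 in B), Foxc2 0.09 and Foxl2 0.07. Foxa2 gave 0.05, Foxl1 0.05, Foxf1 0.03 and Foxb1 0.03. Of the 10 members, 7 were higher at 2 h in both clones, a direction that 24.8% of named genes, 37.0% of other marked genes and 52.8% of other marked coding genes of 1000 to 5000 bp shared. The 3 exceptions were Foxa2, Foxb1 and Foxl1, which were slightly lower in clone B by TMM-scaled counts. By plain density Foxa2 and Foxb1 were level or slightly higher there.

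The size of change that these data allow can be read from the 95% intervals, which are not adjusted for the number of tests. In 7 of the 10 members the interval lay within a 1.5-fold change either way. The other 3 were Foxe1, with log2 bounds of −0.18 and 0.82, Foxs1, with 0.01 and 0.80, and Foxd3, with −0.14 and 0.59. With clone as a replicate block, 9 of 10 lay within 1.5-fold, and the log2 intervals of Foxs1 (0.10 to 0.70), Foxe1 (0.08 to 0.55) and Foxd2 (0.02 to 0.32) lay above 0. No member passed there either after adjustment over all intervals. The 95% intervals of the block fit rest on a spread shared across all transcript intervals, and may be too narrow for so few libraries.

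**Figure D4:**
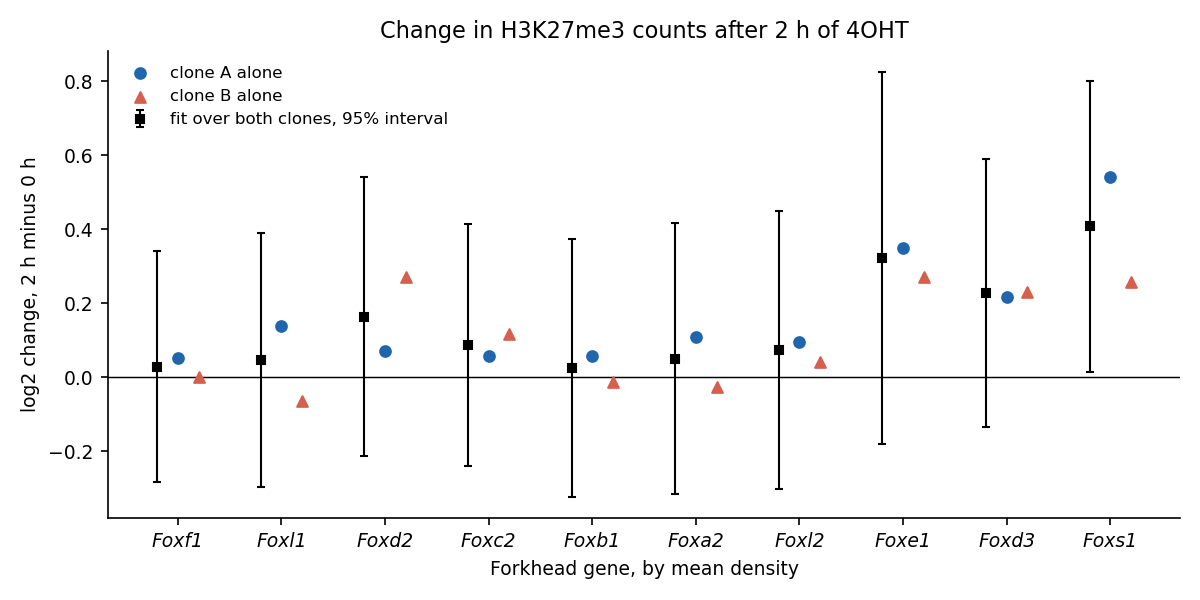
Log2 change in H3K27me3 counts, 2 h minus 0 h, for the 10 forkhead genes in order of density: the fit over both clones with its 95% interval (black squares and bars), clone A alone (blue circles) and clone B alone (orange triangles). Fitted values run from 0.03 to 0.41, the 3 genes at the right have the highest, and 9 of the 10 bars cross 0, the exception being Foxs1.

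The next comparison was between the clones. Of the 10 members, 8 were called higher in clone A than in clone B and none lower (edgeR quasi-likelihood test, adjusted over 50037 intervals), where 17.3% of all intervals were called higher and 10.3% lower. Each clone has 2 libraries, 1 per time, so these calls compare 2 cultures of a line and not clones in general. Foxe1 gave a log2 difference, clone A minus clone B, of 0.45 (SE 0.12, adjusted p = 0.00103), with 0.47 at 2 h and 0.39 at 0 h. Foxl2 gave 0.30 (adjusted p = 0.000968), Foxa2 0.29 (adjusted p = 0.00012) and Foxd2 0.28 (adjusted p = 0.00119). Foxb1, Foxl1, Foxc2 and Foxf1 gave 0.26, 0.24, 0.22 and 0.22. Foxd3 at 0.22 (SE 0.11, adjusted p = 0.134) and Foxs1 at 0.18 (SE 0.15, adjusted p = 0.402) did not pass.

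Both clone A densities were above both clone B densities in 8 of 10 members, the same 8 that were called, against 28.0% of named genes. Marked genes as a class leaned the same way. Of 1155 marked genes tested, 52.6% were called higher in clone A. The share was 59.3% for other marked coding genes of 1000 to 5000 bp. It was 69.8% for other marked genes above 10 times the median gene. The median log2 difference of the other marked genes was 0.19, beside 0.25 for the members and −0.0041 for all named genes. A scaling taken from the marked intervals alone, added after the data had been seen, left 0 of 10 members called, and their log2 values ran from −0.037 (Foxs1) to 0.23 (Foxe1). Over all intervals that scaling gave 5.04% called higher and 43.6% lower. So 8 of the 10 members were called denser in clone A relative to all intervals, and none was called relative to marked intervals. Whether the libraries of the clones differ in enrichment or the cells in the level of the mark cannot be told apart here.

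The calls also rested on which libraries were used. Without the 0 h library of clone B, 4 members were called, and Foxc2, Foxd2, Foxe1 and Foxf1 were not. Foxd2 then gave 0.14 (edgeR adjusted p = 0.307). Without the 2 h library of clone B, 4 were called, and Foxb1, Foxc2, Foxf1 and Foxl1 were not. Without the 2 h library of clone A, 5 were called, and Foxc2, Foxe1 and Foxl1 were not. Foxe1 then gave 0.25 (edgeR adjusted p = 0.279). DESeq2 called 5 of 10, missing Foxc2, Foxe1 and Foxl1 of the 8, and called 5666 of 50398 intervals higher. Foxa2 and Foxl2 were called in every alternative apart from the scaling on marked intervals. The edgeR fit to all 4 libraries called 17.3% of all intervals higher in clone A and 10.3% lower. Of the 17 neighbours, it called 3 higher and 2 lower. The higher ones were Mylk2 (0.25, edgeR adjusted p = 0.00167), Dusp15 (0.21, 0.000936) and Foxl2os (0.17, 0.0232). The lower ones were Faim (−0.44, edgeR adjusted p = 0.00288) and Gm40211, upstream of Foxd3 (−0.18, 0.0416). Fendrr (0.09) and Foxd2os (0.12) were not called. Of the other 18 forkhead genes, 4 were called higher and 2 lower, beside the same 17.3% and 10.3% of all intervals.

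**Figure D5:**
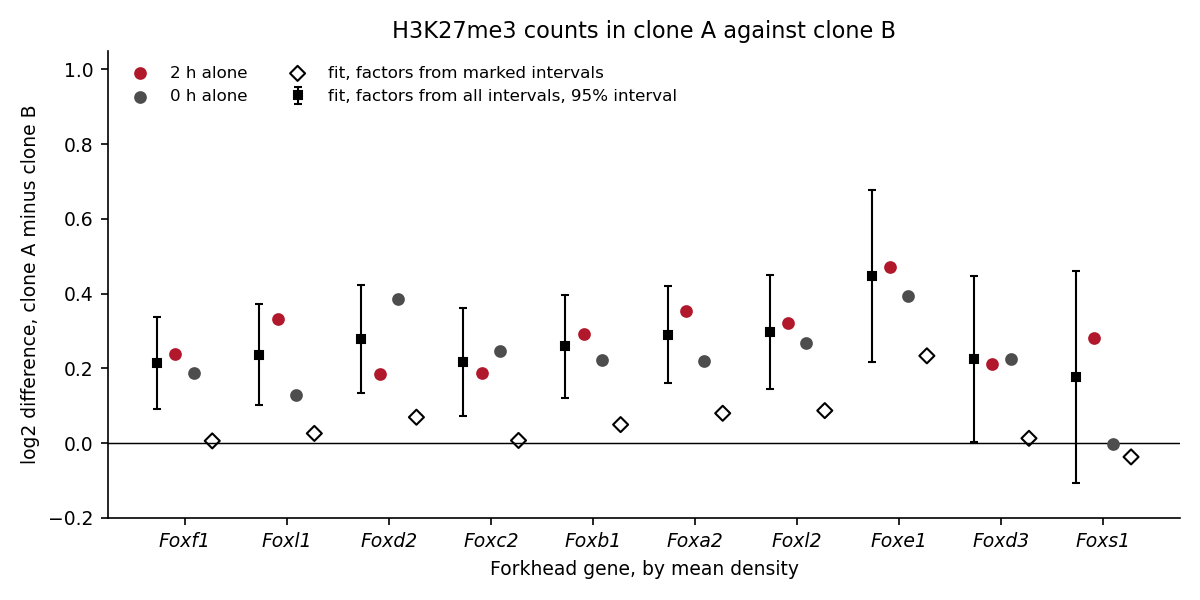
Log2 difference in H3K27me3 counts, clone A minus clone B, for the 10 forkhead genes in order of density: the fit with factors from all intervals and its 95% interval (black squares and bars), the difference at 2 h alone (red) and at 0 h alone (grey), and the fit with factors from marked intervals (open diamonds). Black squares run from 0.18 to 0.45, and the open diamonds lie closer to 0, from −0.037 to 0.23.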

How the data were processed

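The table that the authors deposited gives raw whole-number counts of reads over transcript intervals, introns included, in 4 H3K27me3 libraries, per the file headers. The submitters' processing notes name Bowtie2, bedtools and mm10. Their versions, the filters and the way reads were counted, strand included, are not stated in labels or headers. Overlapping transcripts may share reads (84.8% of intervals overlap another), and column totals are not sequencing depths. A further 16 derived columns without library names were not used, and chromosomes outside the table were not analysed.

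RefSeq gene spans of GRCm38.p6 gave intervals their names (shared bases over union 0.5 or more and, for genes other than the members, 0.2 above the next gene), which named 43786 (86.9%). Where a gene had several, the best match was used. Density used column totals. Counts were tested with edgeR 4.0.16 quasi-likelihood fits over all intervals (TMM, filterByExpr, Benjamini-Hochberg, 0.05), without a block; all 10 members passed the filter. SE is that of the log2 change. Changes within a clone or time used TMM-scaled counts. Tests were tried on simulated counts first. DESeq2 1.42.0 was the alternative test; other alternatives were scaling factors, no filter, terms for clone or time, and each library left out. The labels give the same clones at both times, so clone letters pair libraries; after subtraction of the mean at each time, the libraries of 1 clone correlated at r = 0.530 (50037 intervals, not independent of each other). P-values measure the spread between these libraries, which may be technical. Intervals on counts cover counting error only and not the spread between libraries. Reads have no molecular identifiers, so repeated copies of a molecule may be among the counts.

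Named genes were the 10 members, every other forkhead gene measured, the densest and sparsest regulators per tissue group, nearest neighbours and the 3 closest in density; others are named where single results turn on them. The value of 1 gene under this rule is not reported here. Members and lists were chosen with earlier results of these data known. R 4.3.3, Python 3.11.15 and SciPy 1.17.1 were used.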

Additional observations from a re-analysis of the deposited data

Results flagged for a closer look

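In 3 members the log2 change over 2 h was positive in clone A and slightly negative in clone B. With 1 library per clone and time, the difference was not tested. The log2 change in clone A minus that in clone B was 0.2042 for Foxl1 (0.14 in A and −0.07 in B). It was 0.1346 for Foxa2 (0.11 and −0.03) and 0.0722 for Foxb1 (0.06 and −0.01). Counting error was 2.68 to 3.20% of the count in a Foxl1 library, so its −0.07 in clone B is not clearly beyond counting error. By plain densities, without TMM factors, Foxa2 and Foxb1 in clone B were level or slightly higher at 2 h, with Foxa2 at 3.49 against 3.48 and Foxb1 at 3.60 against 3.57, so for them the opposite sign depends on the scaling.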

How the results depend on the processing

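Between 2 h and 0 h, 0 intervals and 0 members were called by edgeR, by DESeq2, with either other scaling of all intervals, without the filter, and with factors from marked intervals. With clone as a replicate block, calls were also 0 higher and 0 lower, so the block changed no call, with 2078 intervals at an unadjusted p under 0.05 and 3 members (Foxd2, Foxe1 and Foxs1) at that level. Leaving out a library called 0 to 1 interval lower and 0 higher. With 1 library at a time, the change over time takes in part of the clone difference, and the lone library is assumed to vary like the others. It moved the log2 change between −0.14 and 0.19 for Foxa2, −0.13 and 0.14 for Foxb1, −0.039 and 0.21 for Foxc2, −0.024 and 0.37 for Foxd2, −0.096 and 0.13 for Foxf1, −0.13 and 0.18 for Foxl1, and −0.098 and 0.21 for Foxl2. Foxd3, at 0.11 to 0.34, Foxe1, at 0.066 to 0.53, and Foxs1, at 0.26 to 0.52, stayed positive in each of these fits. With factors from marked intervals Foxb1, Foxf1 and Foxl1 gave −0.016, −0.012 and −0.0007; the cause was not tested.

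Between clone A and clone B, 8633 intervals were called higher and 5132 lower, against 5666 and 3028 with DESeq2 and 2524 and 21815 with factors from marked intervals. Leaving out a library gave 5252 to 8087 higher and 3414 to 4398 lower. Members called higher were 8, against 5 with DESeq2, 0 with factors from marked intervals and 4 to 8 without a library. The other alternatives, time as a term among them, called 8. Foxs1, not called, gave −0.037 with factors from marked intervals and −0.14 to 0.40 without a library. By the mean of the 4 libraries, the number of marked members was 10, and 8 at a limit of 8 times the median. Other limits and measures of density moved no member beyond its spread. Fewer counts limit Foxs1, Foxe1 and Foxd3.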
